A study of Mus musculus with 24 samples.

Results

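Gene expression was compared between day 5 and day 3 in mouse bone marrow macrophages that carried a Runx1 transgene at Rosa26 together with LysM-Cre and were cultured without RANKL in M-CSF, the macrophage colony-stimulating factor. Members were taken by their labels: 3 libraries of day 3 and 3 of day 5, 6 of the 24 libraries of the series, with all 15035 genes that passed a filter on low counts. The genotype is written LysM-Cre;Rosa26-Runx1tg/+ and labelled Runx1 over expression. In LysM-Cre the recombinase is made from Lyz2, a lysozyme gene read in macrophages and granulocytes, so any switching of the transgene is limited to myeloid cells. The control genotype, Rosa26-Runx1tg/+, carries the same transgene without Cre, so both genotypes hold the inserted sequence. Cells were flushed from long bones, expanded on petri dishes and seeded at 15000 per well, and RNA was taken at day 3 and day 5. The wells with RANKL received it at 50 ng/mL beside M-CSF at 30 ng/mL. How much M-CSF the RANKL-free wells received, and the age and sex of the mice, are not stated in the sources used here. The title of the series speaks of effects on bone that differ by sex, and its stated aim was to follow osteoclast formation when Runx1 is raised; the wells without RANKL are the macrophage baseline of that design.

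M-CSF binds the receptor tyrosine kinase encoded by Csf1r and is the survival and growth signal of macrophages grown from marrow. In its presence precursors divide for some days and then leave the cell cycle as adherent macrophages, while added RANKL turns the same cells toward multinucleated osteoclasts. Cells that divide pass through DNA synthesis (S phase) and then through mitosis, and the genes of these stages are read by separate transcription programmes: E2F factors act at the S phase genes, and the DREAM and MuvB complexes with B-Myb and FoxM1 act at the mitotic genes.

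The 6 libraries held between 21.1 and 24.3 counts in units of 1e6, so that a single read stood for 0.0398 to 0.0484 CPM (counts per 1e6 of the TMM-scaled library), and mitochondrial genes took 1.53 to 2.42% of the counts. The macrophage receptor genes Csf1r, at 1930 to 3010 CPM, and Adgre1, at 915 to 1540 CPM, were high in all 6 libraries. Calcr, Oscar and Dcstamp, which mark osteoclasts, stayed at 0.968 CPM or lower, against mean levels of 161 to 805 CPM in the RANKL wells of the same genotype. Runx1 (chromosome 16, 92601466 to 92826149 on GRCm38) stood at 86.0 ± 11.7 CPM at day 3 and 106 ± 3.97 CPM at day 5, and in the control genotype at 79.4 ± 12.8 and 106 ± 11.9 CPM (SD, n = 3 each). The levels of the genotypes overlapped on both days, so the gene totals do not separate the labels, and a transgenic transcript could not be told from the endogenous one in these totals. The labels number the libraries 1 to 3 without saying what a number marks. Number 3 stood apart on both days. Its libraries held 622 and 565 counts on Y-linked genes and 12 and 2 on Xist, while the other 4 held 0 and 19753 to 28379. On the principal component that carried 45% of the variance, number 3 of day 3 scored −14.2 against −47.3 and −50.6 for the other day 3 libraries. Nothing in the labels says that the samples came from separate animals or cultures, so p-values measure only the spread among the libraries. By their sex-linked counts numbers 1 and 2 do not share a cell source with number 3, while the spread between numbers 1 and 2 may be technical.

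From day 3 to day 5, 2143 of 15035 genes changed (14.3%; edgeR quasi-likelihood test, Benjamini-Hochberg adjusted p under 0.05), of which 1078 rose (7.17%) and 1065 fell (7.08%). Past a 2-fold change there were 291 rises and 454 falls, and the median change of all genes tested was 0.02 on the log2 scale. The largest block of the falls that a list could describe was mitotic. The rises were led by low-level collagen and matrix genes, and interferon-stimulated genes gave the highest count of rises among the lists. Single libraries weighed on the total. Rises numbered 548, 650 and 1734 without day 3 number 1, 2 or 3, and 575 and 678 without day 5 number 2 or 3, while falls numbered 643 without day 5 number 2. Without number 3 of the LysM-Cre libraries 1285 genes rose and 985 fell, and 882 of the 2143 calls were kept in all 6 fits that left out a library.

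**Figure D1:**
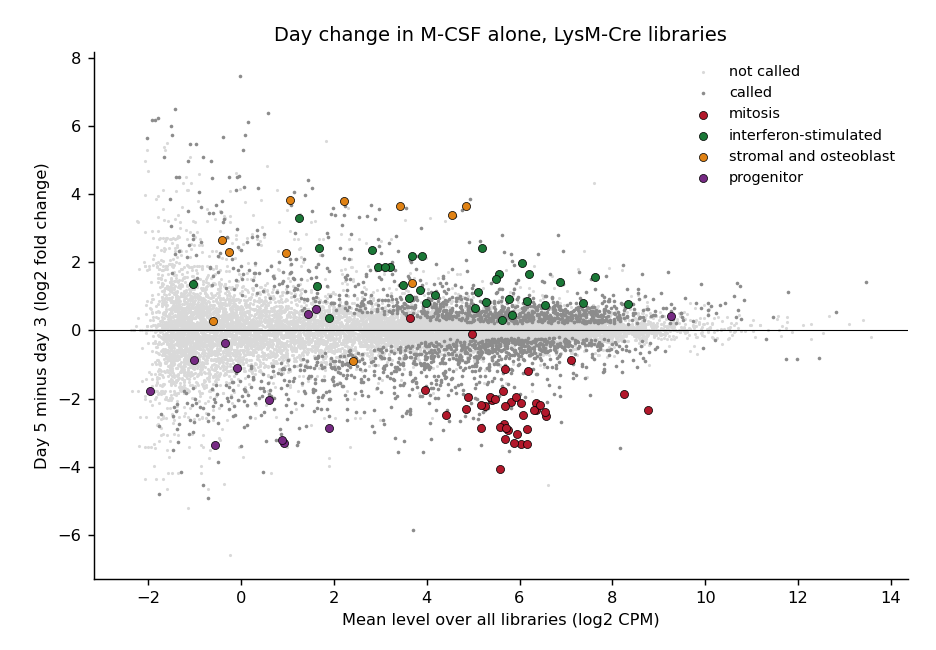
Day change (log2, day 5 minus day 3) of each of the 15035 genes tested against its mean level over all 24 libraries (log2 CPM), with called genes in dark grey and 4 gene lists in colour. The mitosis genes lie in a group with changes down to −4.07, the interferon-stimulated genes lie above 0, and most stromal and progenitor genes lie at lower levels.

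**Figure D2:**
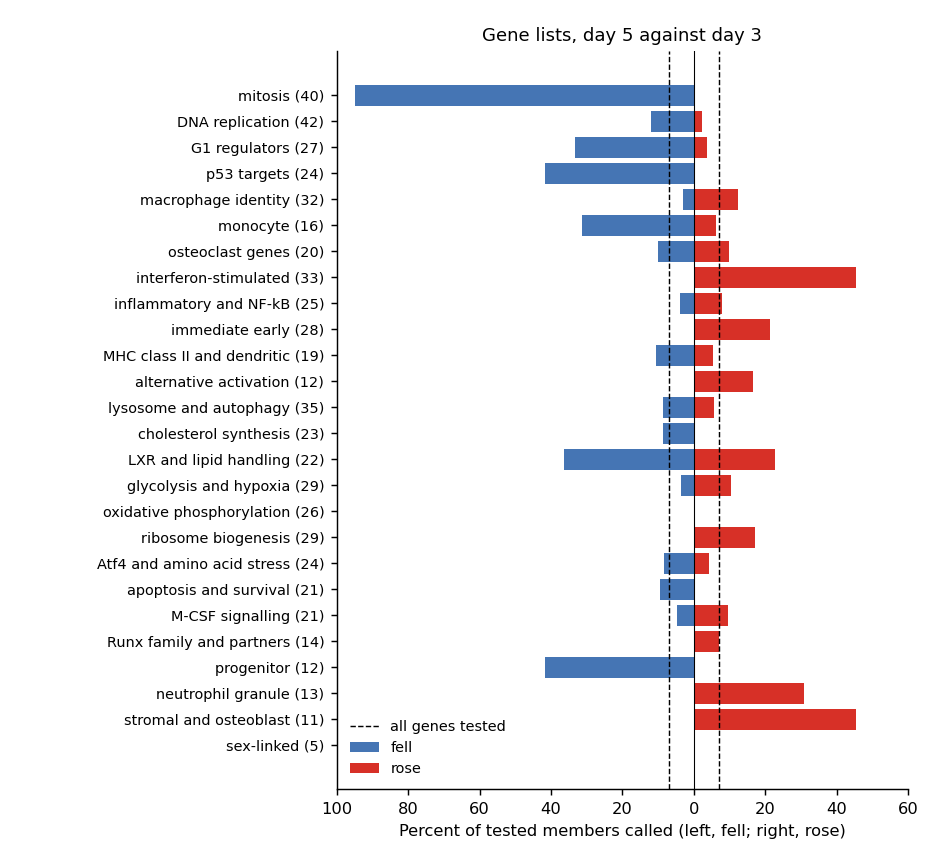
Share of the tested members of each gene list that fell (left) or rose (right), with the number tested in brackets and the shares over all genes tested (7.08% and 7.17%) as dashed lines. Lists with under 5 tested members are not drawn. The mitosis bar reaches 95%, and the interferon-stimulated and the stromal lists each reach 45.5% on the side of the rises.

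Mitotic transcripts fell almost as a whole. Of 40 mitosis genes, all of them tested, 38 fell and 0 rose, with a median change of −2.26 against 0.02 over all genes. All 38 kept their call in each of the 6 fits that left out a library. The list summed to 5550, 3600 and 5050 CPM in day 3 numbers 1, 2 and 3, and to 1080, 1060 and 1080 CPM in those of day 5, so the days did not overlap. In bulk RNA, fewer cells in mitosis and less of these transcripts in each such cell cannot be told apart.

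Among the cyclins, Ccnb2 (chromosome 9, 70407692 to 70421547), which activates Cdk1 on entry into mitosis, stood at 100, 85.5 and 88.6 CPM at day 3 and at 5.47, 4.9 and 5.91 CPM at day 5. All day 3 libraries lay far above all day 5 libraries, and the fall was 16.8-fold (log2 change −4.07, SE 0.16, adjusted p = 6.25e-13). Ccnb1, the other major mitotic cyclin, fell from 125, 85.5 and 121 CPM to 14.7, 14.8 and 15.6 CPM. Ccna2, a cyclin of S phase and early mitosis, fell by 2.38 and the kinase Cdk1 by 1.19 on the log2 scale, so that Cdk1 changed less than the cyclins it binds in mitosis. The kinase genes Plk1, Aurka and Aurkb fell by 2.87, 2.04 and 1.96. Cdc20, which activates the ligase that destroys cyclin B, went from 78, 71.3 and 78.4 CPM to 7.65, 9.38 and 7.89 CPM (log2 change −3.19, SE 0.20). Ube2c, the ubiquitin-conjugating enzyme of the same ligase, was 131, 75.2 and 105 CPM at day 3 and 10.4, 10.6 and 9.78 CPM at day 5. For this gene too the values of the days lay well apart, with number 2 the lowest of day 3.

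Kinetochore and spindle genes moved the same way. Cenpf (chromosome 1, 189640606 to 189688086), a kinetochore protein made late in the cycle, had 161, 82.4 and 120 CPM at day 3 and 12.4, 11.3 and 12.1 CPM at day 5 (log2 change −3.34, SE 0.25, adjusted p = 8.25e-09). Cenpa, the histone H3 variant of centromeres, fell 8.19-fold and the spindle kinesin Kif20a fell 7.61-fold. Mki67 (chromosome 7, 135689784 to 135716361), whose protein coats mitotic chromosomes and is the usual stain for dividing cells, had 983, 555 and 909 CPM at day 3 and 167, 150 and 175 CPM at day 5, a 4.98-fold fall (log2 change −2.32, SE 0.24, adjusted p = 1.05e-06). In Cenpf and Mki67 the day 5 libraries were close to each other, and number 2 was the lowest of day 3. Foxm1, a transcription factor of mitotic genes, fell by 2.21. The members outside the fall were Pttg1, the inhibitor of separase, at 11.5 to 14.5 CPM on day 3 and 13.8 to 19.3 CPM on day 5 (adjusted p = 0.065), and Mybl2, which encodes B-Myb, at 10.3 to 33.7 and 18 to 23.1 CPM (adjusted p = 0.911). Espl1, which encodes separase itself, fell by 1.95.

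The promoters of 3 of these genes are printed because the same short elements recur in most of the list. The windows run from 120 bases before to 20 bases after the RefSeq start on GRCm38.p6, 5′ to 3′ along the gene. Capitals mark CCAAT boxes and the cell cycle genes homology region (CHR), searched as TTTGAA or TTTAAA. All 3 genes lie on the minus strand: Ccnb2 at chr9:70421535-70421674, Cdc20 at chr4:118437324-118437463 and Cenpf at chr1:189688067-189688206.
Ccnb2: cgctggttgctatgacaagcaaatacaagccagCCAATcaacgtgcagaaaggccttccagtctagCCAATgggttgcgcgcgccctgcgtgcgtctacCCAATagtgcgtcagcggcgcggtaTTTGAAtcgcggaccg
Cdc20: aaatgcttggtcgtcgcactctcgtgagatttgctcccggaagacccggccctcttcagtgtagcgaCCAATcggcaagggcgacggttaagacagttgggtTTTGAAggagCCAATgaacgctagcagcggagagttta
Cenpf: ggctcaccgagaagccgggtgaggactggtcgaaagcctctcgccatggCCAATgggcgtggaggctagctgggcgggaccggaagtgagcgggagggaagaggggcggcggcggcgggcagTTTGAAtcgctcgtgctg
In Ccnb2 the CHR began at base 5 after the start with 3 CCAAT boxes before it, the nearest at −21. In Cdc20 it began at −18 between CCAAT boxes at −53 and −8, and in Cenpf at base 3 with a CCAAT box at −71. RefSeq windows of 300 bases, 250 before and 50 after the start, were matched for 34 of the 40 mitosis genes. A CHR on either strand was present in 27 of them (79.4%, exact 95% binomial interval 62.1 to 91.3%, which covers counting error only). The share was 19.4% in the 10538 tested genes with a matched promoter, which are 70.1% of those tested, and 27.6% in all 32851 RefSeq promoters. CCAAT, searched on both strands, occurred in 70.6% of the mitosis promoters and 38.7% of those of the tested genes, and both elements occurred together in 64.7% and 7.84%. With TTTGAA as the only CHR spelling, 70.6% of the mitosis promoters held it and 12.1% of those of the tested genes. A match describes the letters of a window and not a bound site.

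DNA replication genes, which act in S phase, had far fewer calls than the mitosis genes. Of 42 genes, all tested, 1 rose and 5 fell, shares of 2.38% and 11.9%, with a median change of 0.18. Among all genes tested 7.17% rose and 7.08% fell, so the share of falls is not far from the background. The list summed to 2920, 1580 and 3560 CPM in day 3 numbers 1, 2 and 3 and to 2850, 3040 and 3010 CPM at day 5. The days overlapped: number 2 was the low library of day 3, number 1 lay within the day 5 range and number 3 above it. Mcm6, a subunit of the replicative helicase, had 227, 92.7 and 251 CPM at day 3 and 277, 287 and 288 CPM at day 5, with no overlap between the days but no call (log2 change 0.58, SE 0.34, adjusted p = 0.271). Pcna, the sliding clamp of DNA polymerase, had 260, 168 and 376 CPM and then 364, 400 and 427 CPM (0.57, SE 0.26, adjusted p = 0.152). The other Mcm2 to Mcm7 genes had changes between 0.08 and 0.74, and none of them passed.

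The 5 falls included 3 genes of nucleotide supply. Rrm1, the large subunit of ribonucleotide reductase, went from 354, 182 and 305 CPM to 161, 152 and 157 CPM (log2 change −0.84, SE 0.21, adjusted p = 0.012). Thymidine kinase Tk1 fell by 0.85, thymidylate synthase Tyms by 0.96, the transcription factor gene E2f2 by 0.76 and the clamp loader subunit Rfc5 by 0.55. The rise was Cdt1, a licensing factor of replication origins, from 51.1, 27.7 and 63.5 CPM to 78, 80.2 and 83.9 CPM (0.77, SE 0.23, adjusted p = 0.0312). Among these 6 calls E2f2 alone was kept in all 6 fits that left out a library. The falls numbered 2 without day 3 number 1, 3 without day 3 number 3 or any of the day 5 libraries, and 0 without number 3 of the LysM-Cre libraries. The spread at day 3 gave SEs of up to 0.5 (Cdc6), with a lowest of 0.12 in the list, so a missed call does not show that a gene stayed level.

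**Figure D3:**
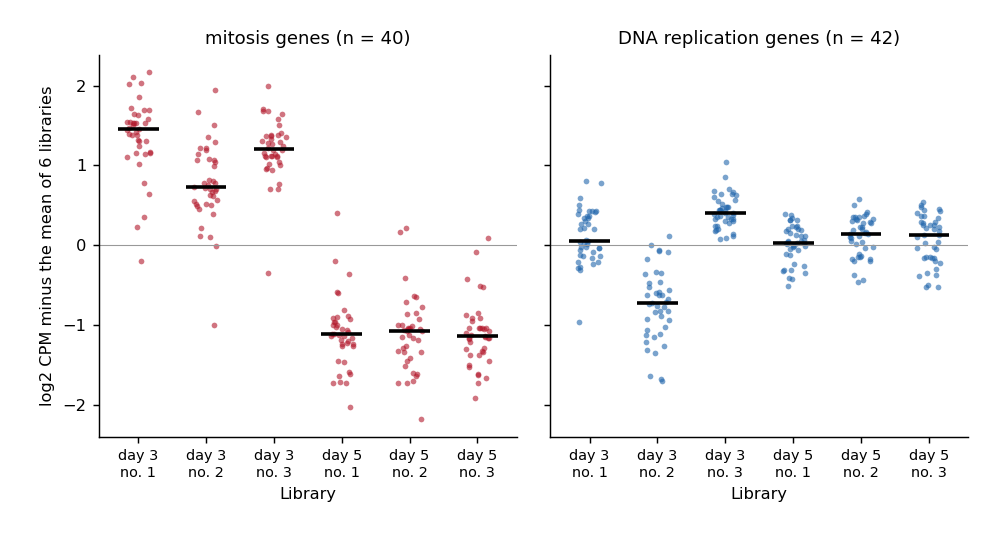
Level of each mitosis gene (left, n = 40) and each DNA replication gene (right, n = 42) in the 6 libraries, as log2 CPM minus the mean of that gene over the 6 libraries; black bars are medians. Mitosis genes stand high in the 3 day 3 libraries and low in the 3 day 5 libraries, while replication genes stand apart in day 3 number 2 and are near each other in the rest.

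The promoter of Mcm6 (chr1:128359686-128359825, minus strand, same window and build) is printed to set beside the mitotic ones, with E2F elements, searched as TTCCCGC or TTGGCGC on both strands, in capitals.
Mcm6: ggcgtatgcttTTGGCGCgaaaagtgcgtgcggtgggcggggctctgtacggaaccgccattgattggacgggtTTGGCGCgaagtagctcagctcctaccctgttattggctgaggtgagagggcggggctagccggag
Its elements began at −109 and −46, and no CHR was found in the 300-base window. E2F elements occurred in 57.1% of the 35 matched replication promoters, 11.8% of the mitosis promoters and 12.2% of the promoters of the tested genes. CHR occurred in 25.7% of the replication promoters, a share between those of the tested genes and of the mitosis list. CCAAT occurred in 65.7% of the replication promoters.

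Among regulators of G1, the phase before DNA synthesis, most calls were falls, of genes that restrain the cycle. Of 27 G1 regulators 9 fell (33.3%) and 1 rose, with a median of −0.18. Cdkn2c (p18), an inhibitor of Cdk4 and Cdk6, fell 3.61-fold, from 96.9, 92.5 and 131 CPM to 26.3, 28.5 and 33.9 CPM (log2 change −1.85, SE 0.13, adjusted p = 2.16e-09), and the related Cdkn2d (p19) fell by 1.58. Cdkn2b (p15; chromosome 4, 89306299 to 89311039), the third gene of this inhibitor family to be called, went the opposite way. It had 0.805, 1.15 and 3.72 CPM at day 3 and 4.98, 10.2 and 13.2 CPM at day 5, a 5.04-fold rise (2.33, SE 0.45, adjusted p = 0.00158), and number 3 was the highest on both days. Ccng1 and Ccng2, atypical cyclins, fell by 0.56 and 1.52, Btg1, an antiproliferative factor, by 0.98, and the inhibitors Cdkn1b and Cdkn1a by 0.75 and 0.47. Mxi1, an antagonist of Myc, and Rbl2, the p130 pocket protein, fell by 0.61 and 0.65. The falls numbered 4 without day 3 number 2 and 5 without day 5 number 3; Cdkn2c, Cdkn2d, Ccng1 and Ccng2 kept their calls in all 6 such fits.

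The growth genes Ccnd1 and Myc separated the day 3 libraries from each other. Ccnd1, a cyclin of G1, had 89.7, 20.5 and 389 CPM at day 3 and 432, 674 and 578 CPM at day 5 (log2 change 1.76, SE 0.84, adjusted p = 0.171). Myc had 4.14, 0.796 and 21 CPM at day 3 and 18.8, 32.6 and 36.2 CPM at day 5 (1.77, SE 0.76, adjusted p = 0.129). Both genes were lowest in number 2 and highest in number 3 of day 3, and for Myc number 3 of day 3 lay above the lowest day 5 value.

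Of 24 targets of p53, 10 fell (41.7%) and 0 rose, with a median of −0.67. Ckap2, which is itself a mitotic spindle gene, had the largest change, from 51.3, 39.5 and 43.5 CPM to 7.11, 6.4 and 7.84 CPM (log2 change −2.65, SE 0.16, adjusted p = 7.99e-10). The other 9 ran from Trp53inp1 at −1.85 and Ddit4 at −1.83 to Mdm2 at −0.38. Phlda3 fell 2.11-fold and Zmat3 1.81-fold. Trp53inp1, a stress protein of autophagy, had 188, 269 and 95 CPM at day 3 and 78.8, 40.9 and 33.3 CPM at day 5, with number 2 the highest of day 3. The days did not overlap for this gene, and 7 of the 10 falls were kept in all 6 fits that left out a library.

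Lipid genes changed in both directions. Of 22 genes of the LXR and lipid handling list 8 fell (36.4%) and 5 rose (22.7%). Scd1 (chromosome 19, 44394451 to 44407709), the desaturase that makes monounsaturated fatty acids, had the largest fall among the named genes. It went from 71.4, 40 and 36.3 CPM to 1.11, 0.725 and 0.709 CPM, a 57.9-fold fall (log2 change −5.86, SE 0.42, adjusted p = 5.81e-09). Its neighbour and near copy Scd2 had 644, 227 and 572 CPM at day 3 and 55.9, 25.2 and 52.2 CPM at day 5 (−3.44, SE 0.47). Reads can be shared between such copies, so the size of each of these changes is uncertain, although both fell with no overlap between the days. Abcg1, which exports cholesterol, had 122, 152 and 48.1 CPM and then 22.7, 18.9 and 8.84 CPM, a 6.37-fold fall, and its partner Abca1 fell by 1.05. Fabp5, Lpcat3, Soat1 and Ppard fell by 0.99, 0.61, 0.53 and 0.63.

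Lpl, the lipase that frees fatty acids from lipoproteins, led the rises with 867, 652 and 1150 CPM at day 3 and 2090, 2630 and 1840 CPM at day 5 (2.45-fold, log2 change 1.29, SE 0.19, adjusted p = 6.54e-05). Hmox1, heme oxygenase, rose by 1.35, the droplet coat gene Plin2 by 0.63, Pparg by 0.65 and Apoe by 1.14. The falls of the list numbered 4 without day 5 number 2. The rises numbered 3 without day 3 number 1 or without any of the day 5 libraries, and Lpl, Hmox1 and Plin2 kept their calls in all 6 fits.

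Many interferon-stimulated genes were higher at day 5. Of 33 tested members 15 rose (45.5%) and 0 fell, with a median of 1.34. Bst2, the tethering factor of enveloped viruses, had 153, 205 and 179 CPM at day 3 and 567, 620 and 408 CPM at day 5, a 2.97-fold rise (log2 change 1.57, SE 0.19, adjusted p = 6.92e-06). Isg15, a ubiquitin-like modifier, had 6.2, 13.2 and 7.52 CPM and then 45.8, 52 and 23.1 CPM, a 4.49-fold rise (2.17, SE 0.48, adjusted p = 0.0051). In both genes day 5 number 3 was the lowest of its day and still above every day 3 library.

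In each of the other 13 rises, too, day 5 number 3 was the lowest of its day. Oasl1 rose 5.15-fold, from 3.42, 5.77 and 3.15 CPM to 25.1, 28.5 and 10.1 CPM. Irf7, the interferon regulatory factor that amplifies the response, rose by 2.41 with levels of 18.3, 36.3 and 14.5 CPM at day 3 and 148, 159 and 60.4 CPM at day 5. The list summed to 1710, 2320 and 1430 CPM at day 3 and to 4690, 4560 and 2790 CPM at day 5, so the days did not overlap and number 3 was lowest on both. Members that did not pass included Ifit1 (adjusted p = 0.206) and Cxcl10 (adjusted p = 0.708). The rises numbered 9 without day 3 number 1 or day 5 number 1 or 2, 12 without number 3 of the LysM-Cre libraries, and 21 without day 5 number 3. Ifi204, Oas1a and Ifit3b have near-identical relatives, so their values are uncertain.

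The promoter of Isg15 (chr4:156200799-156200938, minus strand, same window and build) holds matches to the interferon-stimulated response element. The element was searched on both strands as GAAA, any 2 bases and GAAA, and is marked in capitals.
Isg15: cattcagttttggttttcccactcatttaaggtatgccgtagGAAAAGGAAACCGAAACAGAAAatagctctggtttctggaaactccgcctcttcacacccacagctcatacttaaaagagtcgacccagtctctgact
The matches began at −78, −72 and −66 and overlap each other. The element occurred in 3.18% of the promoters of the tested genes and 3.44% of all RefSeq promoters. Promoters were matched for 23 of the 33 list genes, too few for a share over the list, so none is given.

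The MHC class II and dendritic list had 1 rise and 2 falls among 19 genes (5.26% and 10.5%), near the shares over all genes (7.17% and 7.08%). Cd74, the invariant chain, had 10.1, 17.5 and 7.65 CPM at day 3 and 67.8, 71.6 and 34.8 CPM at day 5 (log2 change 2.31, SE 0.48, adjusted p = 0.00284), with number 3 the lowest on both days. The costimulatory ligands Cd80 and Cd86 fell by 1.27 and 0.80. H2-Aa and H2-Ab1, which encode class II chains, did not pass (adjusted p = 0.248 and 0.082).

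Of 28 immediate early genes 6 rose (21.4%) and 0 fell, with a median of 0.71. Fos, an AP-1 subunit, had 3.38, 4.66 and 20.3 CPM at day 3 and 29.6, 54.1 and 57.7 CPM at day 5, a 5.03-fold rise (log2 change 2.33, SE 0.48, adjusted p = 0.0026). The days did not overlap, and number 3 of day 3 was nearest to day 5. Dusp5 and Dusp1, phosphatases of MAP kinases, rose by 1.79 and 0.69, Spry2, an inhibitor of receptor tyrosine kinase signalling, by 1.32, and Klf6 and Zfp36 by 0.33 and 0.61. Single libraries moved the count: 15 rose without day 3 number 3, 11 without number 3 of both days, 3 without day 3 number 1 or 2 or day 5 number 2, and 2 without day 5 number 3. The inflammatory and NF-κB list had 2 rises (Tnfaip3 and Ptgs2) and 1 fall (Icam1) among 25 tested genes. These shares of 8% and 4% are near those over all genes (7.17% and 7.08%).

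Of 29 ribosome biogenesis genes 5 rose (17.2%) and 0 fell, with a median of 0.59, and none of the 5 kept its call in all 6 fits that left out a library. Nop2, a ribosomal RNA methyltransferase, had 25.4, 19.9 and 43.8 CPM and then 46.4, 58.3 and 62.4 CPM (log2 change 0.91, SE 0.26, adjusted p = 0.0235). Fbl, Gar1, Pes1 and Rrp1b rose by 0.69, 0.94, 0.34 and 0.96. Of 29 glycolysis and hypoxia genes 3 rose (10.3%), led by hexokinase Hk2 at 0.93, and 1 fell (3.45%), Ndrg1 at −0.94. Over all genes the shares were 7.17% and 7.08%.

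Of 32 macrophage identity genes 4 rose (12.5%) and 1 fell (3.12%), with a median of 0.29. Over all genes the shares were 7.17% and 7.08%, so neither count is far from the background. Cd36, a scavenger receptor for oxidised lipoproteins, had 1580, 1530 and 1770 CPM at day 3 and 2760, 2510 and 2940 CPM at day 5, a 1.68-fold rise (log2 change 0.75, SE 0.12, adjusted p = 0.000273). Folr2, a folate receptor of resident macrophages, rose 2.15-fold from 24.8, 43.7 and 39.7 CPM to 78.2, 89.7 and 64.2 CPM. The days did not overlap for either gene. The Fc receptor gene Fcgr1 rose by 1.43 and Siglec1 by 1.72, while Marco, a scavenger receptor, fell by 1.58. Interferon can also raise Fcgr1 and Siglec1, and whether it did so here was not tested. In both genes day 5 number 3 was the lowest of its day, at 210 and 1410 CPM, as it was for Abcg1 and Spn. Adgre1 (adjusted p = 0.182) and Itgam (adjusted p = 0.636) did not pass, nor did the complement genes C1qa, C1qb and C1qc, at changes of 0.79, 0.39 and 0.67. The lysosomal protease Ctsl rose by 1.02 among 2 rises and 3 falls in 35 lysosome and autophagy genes (5.71% and 8.57%), also near the background.

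Of 16 monocyte genes 5 fell (31.2%) and 1 rose. Spn (CD43; chromosome 7, 127132232 to 127137823), a surface sialoglycoprotein of leukocytes, had 50.6, 42.7 and 37.5 CPM at day 3 and 4.84, 4.73 and 2.03 CPM at day 5, an 11.2-fold fall (log2 change −3.49, SE 0.32, adjusted p = 1.55e-07). F10, Plac8, Hp and S100a4 fell by 2.86, 2.08, 1.36 and 1.02 at levels of 6.53 CPM or lower, and Spn and F10 kept their calls in all 6 fits. Ly6c2 and Ccr2, which define inflammatory monocytes, did not pass (adjusted p = 0.72 and 0.541). Of 20 osteoclast genes, 2 rose and 2 fell (10% each), near the shares over all genes (7.17% and 7.08%). Tnfrsf11a, which encodes the receptor of RANKL, rose from 80.3, 61.7 and 123 CPM to 146, 177 and 197 CPM (0.97, SE 0.21, adjusted p = 0.00447), and Mmp9 rose by 1.41. Acp5 and Ctsk, the enzymes most used as osteoclast markers, fell by 0.84 and 0.82 at levels between 2.13 and 11.6 CPM. Both lost their calls without day 3 number 2 or day 5 number 2, while Tnfrsf11a and Mmp9 kept theirs in all 6 fits.

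The M-CSF signalling list had 2 rises and 1 fall among 21 genes, 9.52% and 4.76%, with a median of −0.02. These shares are near those over all genes (7.17% and 7.08%). Csf1r had 2190, 3010 and 1930 CPM at day 3 and 2380, 2400 and 2250 CPM at day 5 (log2 change −0.02, SE 0.20, 95% interval −0.43 to 0.39). Csf1, the gene of the cytokine itself, had 2.45, 1.71 and 1.25 CPM and then 8.37, 9.51 and 1.89 CPM (adjusted p = 0.111), with day 5 number 3 among the day 3 values. The calls were Csf2ra and the adaptor Tyrobp, at 0.41 and 0.44, and Pik3cd, at −0.37. In the Runx family and its partners 1 of 14 genes rose (7.14%, against 7.17% over all genes). It was the corepressor Tle1, from 9.98, 8.16 and 11.4 CPM to 15.6, 18.2 and 15.3 CPM (0.74, SE 0.18, adjusted p = 0.00979). Runx1 had 79.2, 99.5 and 79.4 CPM at day 3 and 107, 110 and 102 CPM at day 5 (0.30, SE 0.14, adjusted p = 0.141). Its partner Cbfb had a change of −0.09 (adjusted p = 0.749), and Lyz2 one of 0.30 (adjusted p = 0.534). For Gt(ROSA)26Sor, the transcript of the transgene's locus, the change was 0.44 (adjusted p = 0.0779).

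Some markers of other cell types changed between the days. Progenitor genes fell in 5 of 12 tested cases (41.7%), with a median of −1.45. The sum of the 14 listed genes went the other way, from 847, 918 and 1050 CPM to 1180, 1110 and 1380 CPM. Nearly all of it was Cd93, a surface receptor also found on myeloid cells, with 821, 898 and 1000 CPM at day 3 and 1170, 1100 and 1360 CPM at day 5 (log2 change 0.41, adjusted p = 0.138). The genes that fell were low in comparison. Mpo, the granule peroxidase of granulocyte and monocyte precursors, had 4.95, 6.85 and 15.3 CPM at day 3 and 1.5, 1.02 and 1.23 CPM at day 5, a 7.2-fold fall (log2 change −2.85, SE 0.48, adjusted p = 0.000401). The azurophil proteases Elane, Prtn3 and Ctsg fell by 3.29, 3.2 and 3.37, and the stem cell antigen gene Cd34 by 2.05. All 5 kept their calls in each of the 6 fits, and their highest values were in number 3 of day 3 for Mpo, Elane, Prtn3 and Ctsg. Of 13 tested neutrophil granule genes 4 rose (30.8%), among them Ltf by 1.09 and Lcn2 by 1.01, and 0 fell. The summed level of that list overlapped between the days, at 219 to 270 and 245 to 296 CPM. Pf4, a platelet chemokine that macrophages also express, rose 3.15-fold, from 192, 192 and 400 CPM to 568, 604 and 1300 CPM, while Hba-a1 of red cells had 0 counts in all 6 libraries. Cd3e of T cells was at 0 as well, which allows a level of up to 0.119 to 0.145 CPM in a library (3 counts).

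Stromal genes rose in 5 of 11 tested cases, of 18 listed, with a median of 2.64, and 1 library split them. Col1a1 (chromosome 11, 94936224 to 94953042), the main chain of bone and skin collagen, had 7.16, 1.91 and 3.15 CPM at day 3 and 70.5, 73.2 and 8.74 CPM at day 5, a 12.4-fold rise (log2 change 3.64, SE 1.04, adjusted p = 0.0233). Col1a2 rose by 3.37, Sparc by 3.65, Postn by 3.79 and Col3a1 by 3.82. The list summed to 30.9, 16.4 and 13.3 CPM at day 3 and to 189, 201 and 30.2 CPM at day 5, so number 3 of day 5 lay within the day 3 range. For Col1a1 number 3 was also the low library of day 5 in 2 other groups. It had 65.3, 55.4 and 4.69 CPM in control cells in M-CSF alone and 156, 106 and 10.9 CPM with RANKL in the LysM-Cre libraries. Pdgfra, which defines fibroblasts, was at 0 in 5 libraries and at 0.0426 CPM in day 5 number 2, and Dcn was at 0.339 CPM or lower. The rises numbered 0, 2, 2 and 1 without day 3 number 2, day 3 number 3, day 5 number 1 and day 5 number 2, and none of the 5 was kept in all 6 fits. Whether stromal cells contribute to other results was not tested.

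**Figure D4:**
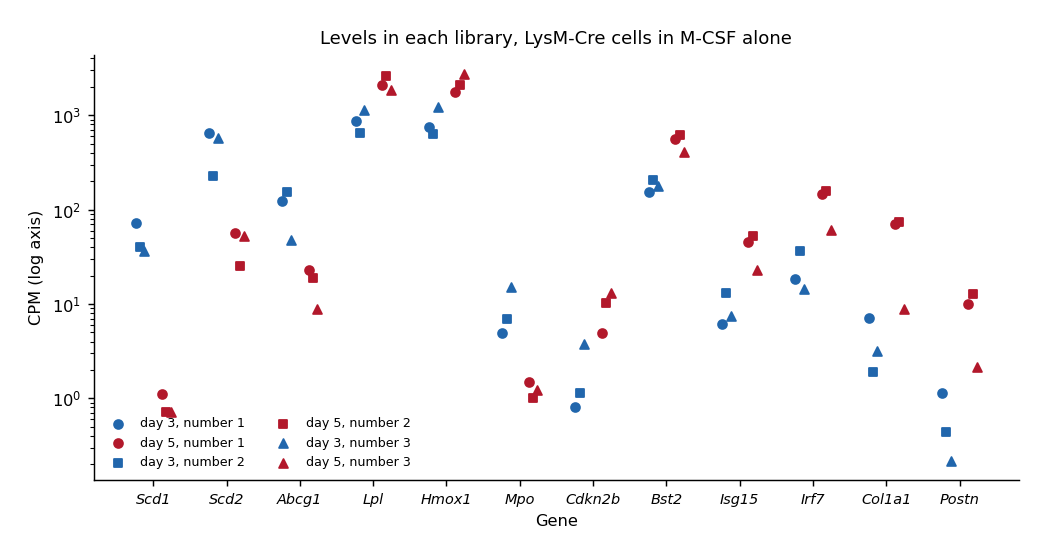
CPM on a log axis of 12 genes in the 3 day 3 libraries (blue) and the 3 day 5 libraries (red), with a circle, square and triangle for numbers 1, 2 and 3. Scd1 is highest on day 3 at 71.4 CPM and lowest on day 5 at 0.709 CPM, and Col1a1 and Postn in day 5 number 3 lie near the day 3 libraries.

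The 12 largest rises among genes with no overlap between the days were mostly of extracellular matrix: Fbln2, Col3a1, Postn, Nid1, Bgn, Sparc, Col12a1, Col1a1 and Col6a3. Fbln2, a basement membrane protein, had 0.161, 0.239 and 0.346 CPM at day 3 and 8.61, 6.65 and 0.662 CPM at day 5 (log2 change 4.4, SE 1.21, adjusted p = 0.0192). Bgn, a proteoglycan, had 1.49, 0.398 and 0.389 CPM and then 14.7, 12.7 and 1.98 CPM, the same order of day 5 libraries. Each of these 9 genes lost its call in at least 1 fit that left out a library. The other 3 genes kept theirs in all 6. Lrrc4, a leucine-rich repeat membrane protein, rose 18-fold from 0.201, 0.239 and 0.346 CPM to 2.66, 2.81 and 8.93 CPM (4.17, SE 0.57, adjusted p = 3.14e-05), and here number 3 was the highest of day 5. Sema7a, a membrane-anchored semaphorin, had 0, 0 and 0.259 CPM and then 1.98, 1.32 and 0.52 CPM (3.86, SE 0.90). It met the minimum on mean level over all 24 libraries through the RANKL wells, where its means were 65.5 and 58.5 CPM. H2-Q6 had 0, 0.0398 and 0.432 CPM and then 1.98, 5.12 and 0.803 CPM, and shares sequence with other class I genes, so its value is uncertain.

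The 12 largest falls were Scd1, Scd2, Ccnb2, Cenpf, Ube2c and Spn, already given, with Cdkn3, Pif1, Aspm, Hmmr, Atp2a3 and Ceacam19, and all 12 kept their calls in all 6 fits. Aspm, a spindle pole protein, had 121, 100 and 95.4 CPM at day 3 and 8.66, 7.93 and 11 CPM at day 5, an 11.5-fold fall (log2 change −3.52, SE 0.20, adjusted p = 5.26e-10). Cdkn3, a phosphatase of cyclin-dependent kinases, fell 11.8-fold and the helicase Pif1 11.7-fold. Hmmr, a spindle protein that is also a hyaluronan receptor, fell 9.76-fold. Atp2a3, a calcium pump of the endoplasmic reticulum and no cell cycle gene, had 103, 87.3 and 137 CPM and then 9.39, 10.3 and 12.3 CPM, a 10.2-fold fall.

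The same days could be compared in control cells in M-CSF alone, whose 6 libraries are others than those above and enter the same fit. In both genotypes number 3 was the low day 5 library for Col1a1 and Csf1. Whether libraries of the same number share more than the fitted spread across the genotypes was not tested. Between the days of control cells, same-numbered libraries had deviations from their group means correlated at −0.0658, 0.0522 and −0.0117. In control cells 1838 genes rose (12.2%) and 1732 fell (11.5%). Of the 1078 rises in the LysM-Cre libraries 859 also rose in control cells, which is 79.7% of the former and 46.7% of the latter. Of the 1065 falls 897 also fell, 84.2% and 51.8%, and 1 gene was called in opposite directions. Across the 15035 genes, which are not independent, the changes had r = 0.685. All 38 mitosis genes that fell also fell in control cells, with a list median of −2.58, as did all 5 progenitor genes and 9 of the 10 p53 targets. Of the 15 interferon-stimulated rises 11 were shared, and of the 5 monocyte falls 2. The difference of the day change between the genotypes was called for 0 genes (0.0%) by edgeR and 0 by DESeq2, with 338 genes (2.25%) at an unadjusted p under 0.05. Ccnb2 differed by 0.45 (95% interval 0.01 to 0.89), Mki67 by 0.52 (−0.15 to 1.20) and Cenpf by 0.76 (0.07 to 1.45). Kif2c and Aspm differed by 0.74 (0.21 to 1.26) and 0.60 (0.02 to 1.17), Scd1 by −0.61 (−1.87 to 0.64) and Runx1 by −0.11 (−0.51 to 0.29), each of these with an adjusted p of 1. The intervals hold for 1 gene at a time. All 6 control libraries held 15648 to 25053 counts on Xist, unlike number 3 of the LysM-Cre libraries. The genotypes are thus not balanced in sex-linked counts. The median SE of this difference over all genes was 0.27, so the absence of calls does not show that the genotypes acted alike.

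With RANKL the mitotic genes of the same genotype went the opposite way. From day 3 to day 5 in RANKL 2651 genes rose (17.6%) and 2344 fell (15.6%), again in 6 other libraries. Of 40 mitosis genes 38 rose there, 37 of them among the 38 that fell in M-CSF alone, with a median of 1.27. Ccnb2 went from a mean of 37.7 to 53 CPM, Cenpf from 37.7 to 105 CPM and Mki67 from 261 to 589 CPM. The difference of the day changes between M-CSF alone and RANKL, tested directly, was called for 2288 genes (15.2%), 1072 higher in M-CSF alone (7.13%) and 1216 lower (8.09%), and 38 of the 40 mitosis genes were among the lower ones. DNA replication genes rose in 30 of 42 cases with RANKL, and for 14 of the 42 the day change in M-CSF alone was lower.

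Other groups followed the medium or did not. Of the 1065 genes that fell in M-CSF alone 296 fell with RANKL (27.8% of the former, 12.6% of the latter) and 270 rose (25.4%). Of the 1078 rises 405 also rose (37.6% and 15.3%) and 103 fell. Across genes the changes had r = 0.305. Scd2 and Abcg1 fell in both media, by 3.44 and 2.67 in M-CSF alone and by 4.16 and 2.63 with RANKL. Of the 8 lipid genes that fell 6 also fell with RANKL and 1 rose, and all 5 that rose also rose. By the direct test the day change was lower in M-CSF alone for 3 of the 8 and 1 of the 5. Scd1 was among those 3, with falls of 5.86 in M-CSF alone and 2.41 with RANKL (difference −3.44, edgeR adjusted p = 0.00024). The 5 stromal genes that rose in M-CSF alone all rose with RANKL. Of the 15 interferon-stimulated genes that rose, 3 rose with RANKL. Tested directly, the day change differed between the media for 2 of the 15, among them Oasl1 by 2.23 (adjusted p = 0.00462), and a difference was not called for the other 13. Of 26 oxidative phosphorylation genes 0 changed in M-CSF alone, with a median of 0.02, while 25 fell with RANKL, and for 17 the day changes differed.

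**Figure D5:**
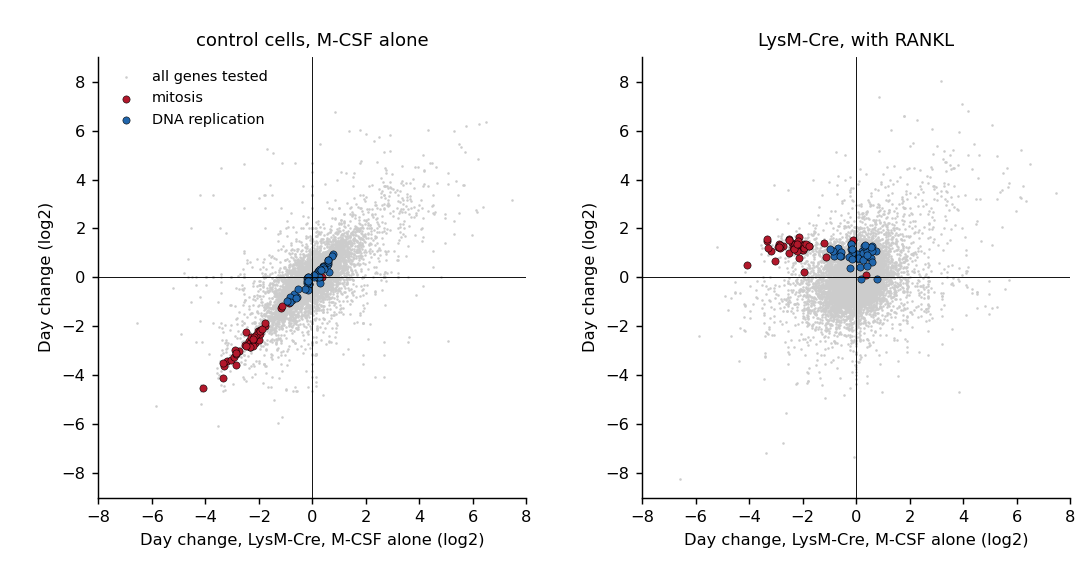
Day change (log2) of the 15035 genes in the LysM-Cre libraries in M-CSF alone (x axis) against that in control cells in M-CSF alone (left) and in LysM-Cre cells with RANKL (right). Mitosis genes (red) lie along the diagonal on the left and at upper left on the right, and DNA replication genes (blue) lie near 0 on the x axis in both.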

How the data were processed

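RNA-seq libraries of mouse bone marrow macrophages were made from 250 ng of total RNA with a TruSeq kit, per the labels' protocols. The authors deposited a single count table, with unnormalized reads of 54532 genes in 24 libraries; STAR, DESeq2 and the build GRCm39 are named in the submitters' processing notes without versions. The sources used here do not state how reads were counted or whether by strand, so reads of overlapping and antisense genes cannot be separated. Positions are printed as deposited: 98.3% of the identifiers found in GENCODE M21 had its GRCm38 position. All columns matched a library by title (0 unmatched).

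Genes were kept by filterByExpr (15035, 27.6%), scaled by TMM and tested with edgeR 4.0.16 (R 4.3.3), glmQLFit with robust dispersion on 24 libraries in 8 groups, at a Benjamini-Hochberg adjusted p under 0.05 over all genes. Adjusted p-values come from edgeR throughout. SEs were derived from the log2 change and its F statistic, and mean ± SD is over 3 libraries. Alternatives were DESeq2 1.42.0, RLE scaling, no filter, a replicate block, the 6 libraries alone, dispersion without robust estimation, and leaving out libraries. Counts were also simulated with these totals, the 2 days pooled into 1 mean per gene and the same spread on both days. Changes were planted in genes with a mean log2 CPM of at least 1. Of these, 88% of 3-fold and 47% of 1.5-fold changes were recovered, with 7 unchanged genes called in a run of 15035.

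The comparison, the 29 lists (663 symbols) and the marker genes Ccnb2, Cenpf and Mki67 were chosen with earlier results of these data known, so no list count is independent support. Named genes were the 12 largest rises and falls past the threshold with a mean log2 CPM of at least 1, no predicted gene symbol and no overlap between days, the 6 largest differences between day changes in each direction, up to 4 members of each list by p, and Runx1, Cbfb, Lyz2, Gt(ROSA)26Sor, Csf1r, Csf1, the sex-linked genes and the markers above. Other genes, among them Ccnb1, Cdc20, Mcm6, Pcna, Ccnd1, Myc, Irf7 and Hmox1, were named after their values were seen, and the interferon element was added then too. Promoters are from RefSeq on GRCm38.p6, matched by symbol, chromosome, strand and nearest start.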

Additional observations from a re-analysis of the deposited data

Results flagged for a closer look

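Each result here had a day change in M-CSF alone that differed from the day change with RANKL in the same genotype, by a test of the difference itself (edgeR, adjusted p under 0.05, 3 libraries in each of 4 groups). Values are the change in M-CSF alone minus the change with RANKL, on the log2 scale. Mitotic genes had the most negative differences: Sapcd2, a regulator of spindle orientation, differed by −5.35 (adjusted p = 3.11e-07), Ube2c by −4.92, the helicase Pif1 by −4.87, Cenpf by −4.82, Aspm by −4.74, Pimreg by −4.61, Ccnb2 by −4.57 (adjusted p = 8.36e-12) and Mki67 by −3.49. All 8 fell in M-CSF alone and rose with RANKL.

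Among the positive differences, Cdkn2b differed by 3.96 (adjusted p = 0.000121) and Atf7ip2 by 4.28 (adjusted p = 0.000504). Both rose in M-CSF alone and fell with RANKL, by 1.62 and 1.5. Sema7a differed by 4.03 (adjusted p = 0.00749). It rose in M-CSF alone, and its change with RANKL was −0.16 (adjusted p = 0.752).

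Atf7ip2 and Sema7a rest on few reads at day 3 of M-CSF alone, with 8, 8 and 4 counts and 0, 0 and 6 counts. The remaining 3 do too, and were not called in M-CSF alone. Lpin3, a lipin phosphatase, differed by 6.02 (adjusted p = 0.0458). It had 0 counts in all 3 day 3 libraries and 0.387, 0.384 and 0 CPM at day 5, so the days overlapped. Its day 5 mean of 0.257 CPM was 6.27 times the level of 3 counts over the day 3 group. That ratio is no lower bound, because the day 5 mean rests on few reads too. Slc6a17, a transporter gene, differed by 4.44 (adjusted p = 0.0197) with 0.52 CPM or less in all 6 libraries. Ltbp1, which binds latent TGF-β, differed by 3.92 (adjusted p = 0.0152) with 1.5 CPM or less. Lpin3, Slc6a17, Ltbp1 and Atf7ip2 met the minimum on mean level, as Sema7a did, through the RANKL wells. Mean levels there at day 3 and day 5 were 7.81 and 5.66 CPM for Lpin3 and 42.7 and 19.3 CPM for Slc6a17. For Ltbp1 they were 23.3 and 9.44 CPM, and for Atf7ip2 31.9 and 11.3 CPM (LysM-Cre libraries).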

How the results depend on the processing

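Directions held in every alternative run: no called result reversed. The 38 mitotic falls were called under every setting, including each fit that left out a library. Leaving out 1 library in turn, rises ran from 548 to 1734, falls from 643 to 1437, and list counts from 9 to 21 (interferon-stimulated), 0 to 5 (stromal), 4 to 8 and 3 to 5 (lipid falls and rises), 4 to 12 (G1 falls), 2 to 6 (DNA replication falls) and 2 to 15 (immediate early). Without the filter on low counts 672 genes rose, 649 genes had day changes that were higher in M-CSF alone than with RANKL, and 9 interferon-stimulated, 1 stromal and 3 immediate early genes rose and 3 DNA replication genes fell. More genes then enter the adjustment. A fit of the 6 libraries alone, with fewer residual degrees of freedom, called 283 rises and 495 falls, with 6 p53, 5 lipid, 4 G1 and 3 DNA replication falls and 3 lipid, 3 stromal and 0 immediate early rises. Without number 3 of the LysM-Cre libraries 0 DNA replication genes fell and 11 immediate early genes rose; the cause was not tested. With DESeq2 1357 genes rose and 1316 fell.

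The replicate number was also fitted as a block with genotype. Same-numbered libraries of the days had deviations correlated at 0.139, 0.0534 and 0.32, and day 3 number 2 correlated best with day 5 number 1 (0.156). Day 3 number 3 correlated with day 5 numbers 1 and 2 at −0.265 and −0.115, so number 3 was linked across the days, as in its sex-linked counts. For numbers 1 and 2 no such link was clear, and the main fit did not pair the numbers. Under the block 1370 genes rose and 1191 fell, 24 interferon-stimulated genes rose, and no other list count listed here moved by more than 1.5 times.

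With 3 libraries a day, a 1.5-fold change was found in 47% of simulated cases, so genes not called may include changes of that size. The simulation changed 100 genes at each fold, against 2143 genes called in the data. Its adjusted threshold was therefore stricter, and the share may not carry over.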

Other observations

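Several metabolic and stress lists had few calls. Over all genes 7.17% rose and 7.08% fell. Of 26 oxidative phosphorylation genes 0 were called, and of 23 cholesterol synthesis genes 2 fell (8.7%), Mvd by 1.03 and Nsdhl by 0.62. Of 24 genes of the Atf4 and amino acid stress list Slc3a2, an amino acid transporter chain, rose by 0.87 (4.17%). Sesn2 and Nupr1 of that list fell by 0.92 and 0.9 (8.33%). In the alternative activation list Arg1 and Il4ra rose by 1.78 and 0.5 (16.7%) and 0 of 12 fell.

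Runx3, a relative of Runx1, followed the library number and not the day. It had 0.402, 0.279 and 6.87 CPM in day 3 numbers 1, 2 and 3 and 0.677, 0.853 and 6.38 CPM at day 5 (log2 change 0.08, SE 0.93, edgeR adjusted p = 0.975). The number 3 libraries are those with Y-linked counts and almost no Xist. It was picked after its values were seen.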
